A study of Mus musculus with 4 samples.

Results

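D-PDMP and D-PPMP are a pair of ceramide analogues built on the same core, a phenyl ring and a morpholine ring on a short amino alcohol. They differ in the acyl chain on the amide, which is decanoyl in D-PDMP and the longer palmitoyl in D-PPMP. Cells of MC3T3-E1, an established mouse osteoblastic line, received D-PDMP at 10 µM or D-PPMP at 1.0 µM. The same cells without inhibitor (Control) and with the iminosugar Miglustat at 50 µM were the other groups. In all 4 groups the cells were harvested 24 h after they had been replated, which followed 4 days of treatment. Whether the compounds were present during the last 24 h is not given in the sources used here. Each group was measured on 1 Agilent one-colour array, so the pair takes 2 of the 4 arrays, and 14550 of the 22907 genes with a probe were well above background on both.

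With 1 array a group, no test was made and no p-value is given. Each value below compares individual arrays. The doses differ between the compounds, so dose and acyl chain cannot be told apart, and the values of the pair are set side by side as those of 2 treatments. All 4 arrays lay on 1 slide, so position on the slide and treatment cannot be told apart either. A level is the log2 processed signal of a gene's brightest probe minus the 75th percentile of its array. A difference is the level with D-PPMP minus the level with D-PDMP, in log2 units, and is negative where the gene was lower with D-PPMP.

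Glucosylceramide synthase, encoded by Ugcg, adds glucose to ceramide on the Golgi membrane and so opens the synthesis of most glycosphingolipids. Lactosylceramide, the ganglioside GM3 and the more complex gangliosides are made from its product. Morpholino ceramide analogues occupy the enzyme as mimics of its lipid substrate or product and are known to leave ceramide unused. D-PDMP is also known to collect in lysosomes and to disturb their lipid handling. In osteoblasts, sphingolipids take part in growth factor signalling, matrix secretion and the control of osteoclast formation.

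The arrays held 56605 probes outside the controls. The share of these well above background ranged from 57.4% in Control to 62.4% with D-PPMP, with 60.8% for D-PDMP, and no spot was saturated. Spots of a probe repeated on the same array varied by a median SD of 0.0289 to 0.0369. The scanner software gave a median error of 0.204 for the log2 difference between the pair. Of 15 markers of osteoblasts and fibroblasts, 13 were measured on both arrays of the pair, while Alpl and Ibsp, genes of mineralising osteoblasts, were not well above background. A smaller share of the markers of other cell types was measured. This was 4 of 11 for macrophages, 1 of 9 for endothelium, 4 of 9 for adipocytes and 3 of 10 for skeletal muscle. It was 4 of 10 for chondrocytes, 6 of 10 for epithelium and 5 of 9 for osteoclasts. Some were bright with D-PDMP, with Col2a1 at 5.77, Itgam at 4.47, Ctsk at 3.64 and Krt14 at 3.44. The summed level of the macrophage markers lay between 4.68 and 4.79 on the 4 arrays.

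The transcriptomes of cells under the morpholino analogues lay closer to each other than to Control or to cells under Miglustat. The SD over genes of the difference between the pair was 0.190, against 0.214 for D-PDMP and 0.239 for D-PPMP relative to Control. Relative to Miglustat it was 0.255 for D-PDMP and 0.279 for D-PPMP. Among the genes above the median level of each pair of arrays the order was the same. There the SD was 0.0852 between the analogues, 0.127 between D-PDMP and Control, 0.144 between D-PPMP and Control, 0.164 between D-PDMP and Miglustat and 0.188 between D-PPMP and Miglustat. With no filter on dim genes the SD was 0.487 between the analogues and 0.477 between Miglustat and Control, the lowest of all pairs there. These pairs share arrays and the SD describes genes, not cultures.

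**Figure D1:**
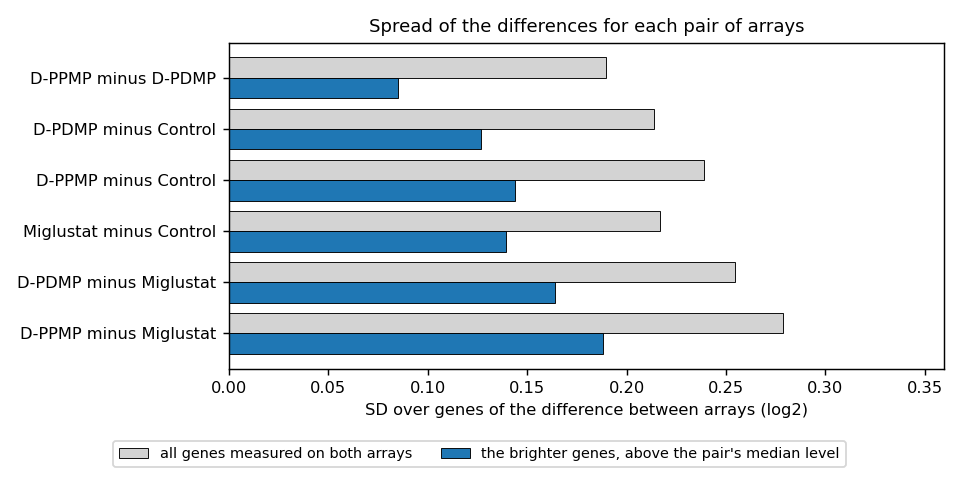
Bars give the SD over genes of the log2 difference for each of the 6 pairs of arrays, in grey for all genes measured on both arrays and in blue for those above the pair's median level. The D-PPMP and D-PDMP arrays had the lowest value of the 6 pairs in both classes, 0.190 and 0.0852.

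At a 2-fold difference, 15 genes were higher with D-PPMP (0.103% of the genes measured) and 11 were higher with D-PDMP (0.0756%). All 26 lay below the median level of 1.12, where signals are weakest, and with another background correction (normexp with an offset, which draws weak signals together) no gene was 2-fold apart. At a 1.5-fold difference 217 genes were higher with D-PPMP (1.49%) and 74 with D-PDMP (0.509%), and 288 of these 291 were below the median level. The side that held more of these genes depended on the scaling. With quantile normalization 136 were higher with D-PPMP and 155 with D-PDMP, and with cyclic loess 118 and 139. Of the 7275 genes above the median level, 3 (0.0412%) stood 1.5-fold apart, and all 3 were lower with D-PPMP. They were Pappa, Fos and Cdsn.

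The median difference moved with the level of the gene. Over 4 equal groups of genes, from the dimmest to the brightest, it was 0.081, 0.0049, -0.019 and -0.032. The share of genes lower with D-PPMP was 38.4%, 48.6%, 60.2% and 69.9% in the same order, and 54.3% over all genes. Above the median level it was 65.0%. These shares are the background for the gene groups described further on.

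**Figure D2:**
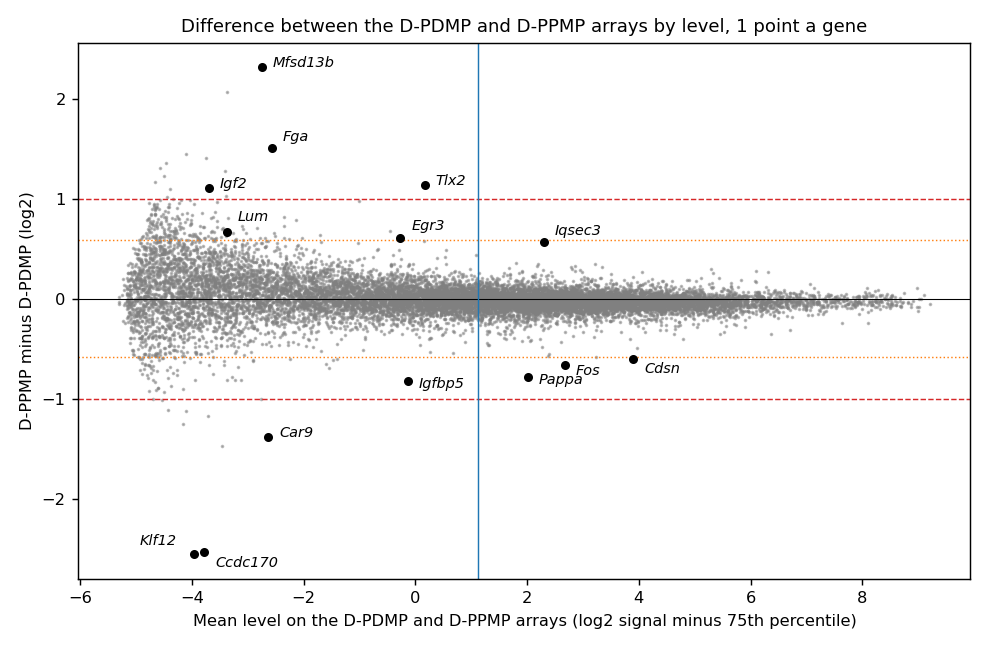
Each point is a gene, placed by its mean level on the D-PDMP and D-PPMP arrays and by its D-PPMP minus D-PDMP difference, both in log2 units. Dashed lines mark 2-fold, dotted lines 1.5-fold, and the vertical line the median level of 1.12, to the right of which Pappa, Fos and Cdsn alone pass 1.5-fold.

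The targeted pathway itself read nearly alike under the 2 compounds. Ugcg, the gene of the inhibited enzyme, stood at 1.45 in Control and 1.54 with Miglustat, and at 1.53 with D-PDMP and 1.45 with D-PPMP, a difference of -0.08. The 4 arrays were nearly level for this gene, and its next probe gave a difference of 0.07. B4galt5, whose enzyme turns glucosylceramide into lactosylceramide, stood at 3.73, 3.67, 3.83 and 3.87 in the same order of arrays. St3gal5, which makes GM3, stood at 4.62, 4.74, 4.78 and 4.64, a difference of -0.14. Neither gene differed between the pair by as much as the software's error of a difference.

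Of 25 genes of glycosphingolipid synthesis, 16 were measured. Of these 9 were lower and 7 higher with D-PPMP, with a median difference of -0.01 beside -0.01 over all genes. Only St8sia5, a sialyltransferase of complex gangliosides, stood 1.5-fold apart. It stood at -4.72 in Control and -4.93 with Miglustat, and at -4.59 with D-PDMP and -3.75 with D-PPMP, close to background on every array. Beside 54.3% of all genes, 11 of 16 measured genes of glycosphingolipid breakdown were lower with D-PPMP, with a median of -0.05. The largest distances among those above the median level were -0.13 for Scarb2, the receptor that carries glucocerebrosidase to lysosomes, and -0.09 for Gba2, the non-lysosomal glucosylceramidase. Ceramide, sphingomyelin and sphingosine phosphate genes were split, with 16 lower and 17 higher of 33 and a median of 0.02. Ormdl3 and Ormdl1, regulators of serine palmitoyltransferase, differed by -0.20 and -0.17. S1pr3, a receptor of sphingosine phosphate, differed by 0.88, from a level of -5.10 with D-PDMP to -4.22 with D-PPMP, with Control between them at -4.65.

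Genes of lysosomes and autophagy, the compartment in which D-PDMP is known to collect, were measured in 39 of 40 cases. With D-PPMP 28 were lower and 11 higher, with a median of -0.04, and none of the 39 stood 1.5-fold apart. Of these 39, 31 lie above the median level, where 65.0% of all genes were lower. With quantile normalization or cyclic loess 25 of the 39 were lower. Against Control the median of the lysosome and autophagy genes was -0.01 with D-PDMP and -0.06 with D-PPMP. Gpnmb, a lysosomal glycoprotein, was the member 2-fold from Control on both arrays. It stood at -3.62 in Control and -2.81 with Miglustat, and at -2.62 with D-PDMP and -2.62 with D-PPMP. These levels were below the median level, and Gpnmb had no other probe well above background. Under other processing its distance above Control was as low as 0.29 with D-PDMP and 0.27 with D-PPMP.

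Both compounds were next set beside Control. These comparisons share the Control array, so a deviation of that array enters both. At 2-fold, 46 genes stood apart from Control with D-PDMP (0.325%) and 72 with D-PPMP (0.507%). With D-PDMP 22 were higher (0.155%) and 24 lower (0.170%), and with D-PPMP 43 were higher (0.303%) and 29 lower (0.204%). Among the 14076 genes measured on all 3 arrays, 11 were higher and 12 lower with both, and none was 2-fold higher with 1 compound and 2-fold lower with the other. These 23 genes were 53.5% of the 43 genes called there with D-PDMP and 32.4% of the 71 called with D-PPMP. Of the 23, 19 were below the median level. Another probe well above background was present for 4 of the 23 genes. For Tnn and Egr3 it also passed 1.5-fold in the same direction, and for Igsf10 and Fndc1 it did not. With normexp 6 genes stood 2-fold from Control with D-PDMP and 14 with D-PPMP. Lum remained among them, at -1.22 and -1.07, and Egr3 stood 0.88 and 1.30 above Control.

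Genes of secreted matrix proteins and growth factors were among those lower with both analogues. Lum encodes lumican, a small leucine-rich proteoglycan that binds collagen fibrils. It stood at -0.83 in Control and -0.73 with Miglustat, and at -3.70 with D-PDMP and -3.03 with D-PPMP, 7.30-fold and 4.60-fold below Control. Dcn encodes decorin, a proteoglycan of the same family. It stood at 4.36, 3.98, 2.70 and 3.03, which is 3.16-fold and 2.52-fold below Control. Both proteoglycans were thus lower with either analogue than on the Control and Miglustat arrays, and both were lowest with D-PDMP.

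Tnn, the gene of tenascin-N, a glycoprotein of bone matrix, stood at 0.63 in Control and 1.43 with Miglustat, and at -0.68 with D-PDMP and -1.19 with D-PPMP. Its next probe differed from Control by -0.95 with D-PDMP and -1.65 with D-PPMP. Npnt, the gene of nephronectin, an integrin ligand made by osteoblasts, stood at -0.73, -0.09, -1.96 and -1.94. For Npnt the analogues gave nearly the same level, with a difference of 0.02, and for Tnn D-PPMP gave the lower level on both probes. Ccn3, a matricellular regulator, stood at 3.94, 4.66, 3.01 and 2.95. Pappa2, a protease that cleaves binding proteins of insulin-like growth factors, stood at 6.43, 6.88, 5.74 and 5.69, and its next probe differed from Control by -0.71 and -0.76. Each of Tnn, Npnt, Ccn3 and Pappa2 was highest with Miglustat.

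Further genes of the matrix and of secreted regulators lay on the same side. Fbn2, the microfibril protein fibrillin-2, differed from Control by -0.68 with D-PDMP and -0.85 with D-PPMP. Sfrp2, a secreted modulator of Wnt signals, differed by -0.82 and -0.55. Timp3, an inhibitor of matrix metalloproteases, differed by -0.57 and -0.92. Sfrp2 was thus lower with D-PDMP, and Fbn2 and Timp3 with D-PPMP. Slpi, a secreted protease inhibitor, Slc6a9, a glycine transporter, and Rilp, an adaptor of late endosomes, completed the lowest genes above the median level, with Col5a3. The next probe of Slpi did not show the lower level, since it stood 0.03 above Control with D-PDMP and 0.25 above with D-PPMP, where the brightest gave -0.72 and -0.58. The next probe of Col5a3 was below Control with both, by differences of -0.75 and -0.22, but differed between the analogues by 0.53 where the brightest probe gave -0.06.

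Several early response genes of growth factor signalling were higher with both analogues. Egr1, Egr2 and Egr3 encode zinc finger transcription factors that cells make within minutes to hours of a growth factor signal. Egr3 stood at -2.30 in Control and -1.16 with Miglustat, and at -0.57 with D-PDMP and 0.04 with D-PPMP, and its next probe differed from Control by 2.15 and 2.67. Egr2 stood at 2.66, 3.42, 3.90 and 3.99. Egr1 stood at 3.58, 4.30, 4.75 and 4.54. All 3 genes were higher with either analogue than with Miglustat, and Miglustat was above Control.

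Nr4a1, an early-response nuclear receptor, stood at 1.15 in Control and between 2.35 and 2.38 on the other arrays. Errfi1, a feedback inhibitor of the epidermal growth factor receptor, stood at 1.79, 2.16, 2.92 and 3.11. The analogue arrays thus lay above the Miglustat array for Errfi1 and level with it for Nr4a1. Ptgs2, cyclooxygenase-2, differed from Control by 0.83 with D-PDMP and 0.55 with D-PPMP. Aqp1, a water channel, differed by 0.70 and 0.83. Sgk1, a serum-regulated kinase, differed by 0.65 and 0.86, and Ankrd1, a nuclear ankyrin repeat protein, by 0.52 and 0.52. Odc1, the rate-limiting enzyme of polyamine synthesis, read 0.58 and 0.51 on its brightest probe but 0.17 and 0.17 on the next.

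**Figure D3:**
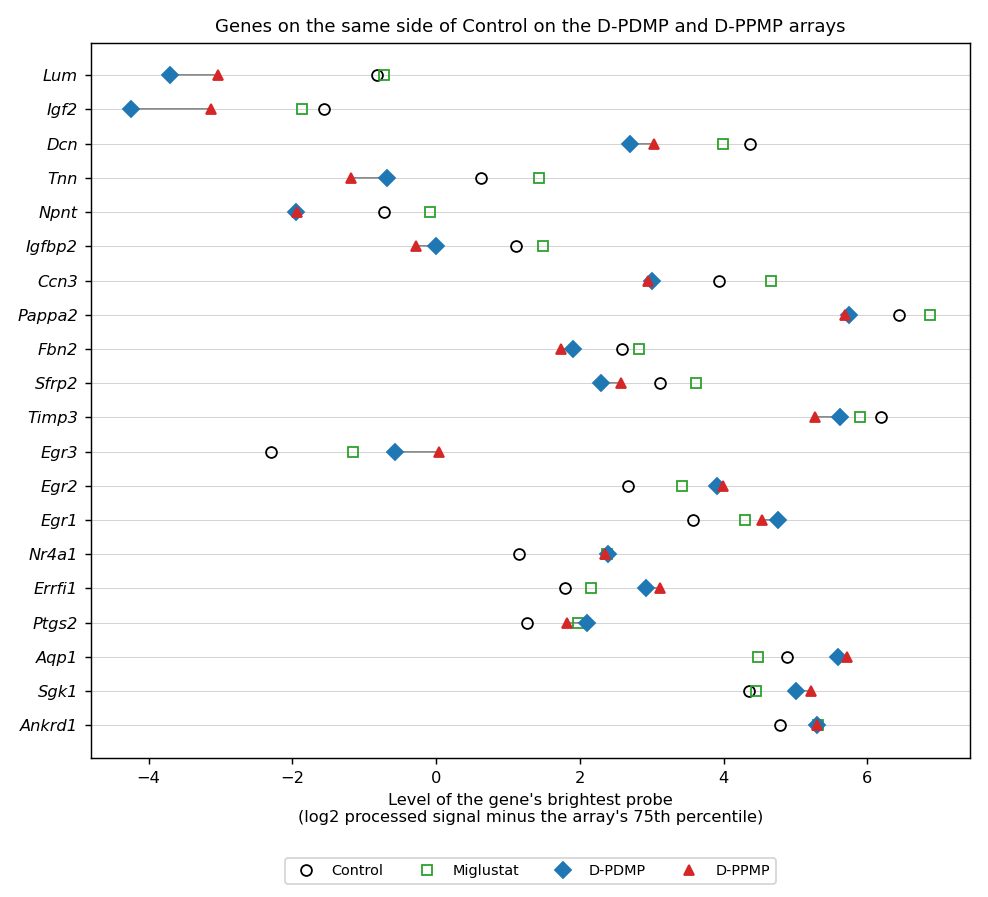
Levels on the 4 arrays, in log2 units relative to each array's 75th percentile, of 20 genes on the same side of Control with D-PDMP and D-PPMP, 1 symbol an array and a grey line between the analogues. For Lum, Dcn, Tnn and Npnt the filled symbols lie left of Control, and for Egr3, Egr2 and Errfi1 right of it.

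Among well expressed genes the analogues parted most at Pappa. It encodes the metalloprotease that cleaves binding proteins of insulin-like growth factors and frees the ligand. It stood at 2.17 in Control and 2.58 with Miglustat, and at 2.40 with D-PDMP and 1.62 with D-PPMP. The D-PPMP array was the lowest of the 4, 1.72-fold below D-PDMP, and Control lay between the analogues. Pappa had no other probe well above background.

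Fos was the next. It encodes the partner of Jun in the AP-1 transcription factor. It stood at 2.24 in Control and 3.30 with Miglustat, and at 2.999 with D-PDMP and 2.34 with D-PPMP. D-PDMP and Miglustat were therefore well above Control, while D-PPMP differed from Control by 0.10 and from D-PDMP by -0.66. Dusp1, an early-response phosphatase of MAP kinases, had the same order of arrays, with levels of 1.98, 3.35, 2.82 and 2.38 and a difference of -0.43. The upstream sequences of this pair are shown because both genes parted in the same direction. They are from RefSeq, assembly GRCm38.p6, and hold the 250 bases before the start of transcription. Capitals mark TGACGT, the core of the cAMP response element, and in Dusp1 also the full element TGACGTCA that contains the core.

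Fos (chr12:85473640-85473889, plus strand): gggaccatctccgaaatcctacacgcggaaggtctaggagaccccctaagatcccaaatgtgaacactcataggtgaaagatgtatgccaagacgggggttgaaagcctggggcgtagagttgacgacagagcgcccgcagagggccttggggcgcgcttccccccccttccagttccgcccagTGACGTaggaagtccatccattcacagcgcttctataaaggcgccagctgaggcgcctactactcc
Dusp1 (chr17:26508473-26508722, minus strand): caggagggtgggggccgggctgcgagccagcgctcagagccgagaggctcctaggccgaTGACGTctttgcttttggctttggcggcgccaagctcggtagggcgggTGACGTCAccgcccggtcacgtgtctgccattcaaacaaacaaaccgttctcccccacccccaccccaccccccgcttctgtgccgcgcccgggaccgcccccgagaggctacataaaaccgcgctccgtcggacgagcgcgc

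The core was searched on both strands and was present in the 250 bases before the start in 2125 of 32851 promoters (6.47%). It was found in 9 of the 24 measured early-response genes that have a promoter in the table. These genes have 30 promoters, so a count of genes is not like the share of promoters. The full element was present in 508 of the promoters (1.55%) and in 3 of these 24 genes, which were Btg2, Dusp1 and Maff. Their differences between the analogues were -0.39, -0.43 and 0.18, so genes with the same element lay on either side of 0.

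The early-response genes thus did not move as a block between the analogues. Of 32 measured, 19 were lower and 13 higher with D-PPMP, with a median of -0.08. Fos, Dusp1, Btg2, Ier2 and Ccn1 differed by -0.66, -0.43, -0.39, -0.33 and -0.29. Egr3 and Fosl1, an AP-1 subunit of the Fos family, differed by 0.61 and 0.35. Nr4a1, Myc and Egr2 differed by -0.03, 0.06 and 0.09. Against Control the median of the 32 genes was 0.30 with D-PDMP, 0.19 with D-PPMP and 0.35 with Miglustat. With D-PDMP 28 were above Control, and with D-PPMP 26, both counted against the same Control array. Over all genes measured on both analogue arrays and Control, the medians were -0.001 with D-PDMP and -0.005 with D-PPMP.

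Several other well expressed genes were lower with D-PPMP than with D-PDMP. Cdsn, an adhesion protein best known from cornified epithelium, stood at 4.70 in Control and 3.66 with Miglustat, and at 4.20 with D-PDMP and 3.61 with D-PPMP. Niban1, a stress-responsive gene, stood at 3.88, 3.50, 3.52 and 2.94. Sema3c, a secreted semaphorin, stood at 3.07, 3.27, 2.67 and 2.10. For these 3 genes D-PDMP lay below Control and D-PPMP lay lower still. Cthrc1, a secreted glycoprotein of remodelling tissue, stood at 2.79, 3.05, 2.67 and 2.12, so D-PDMP was close to Control and D-PPMP apart. Cemip, which takes part in the breakdown of hyaluronan, differed by -0.49 on its brightest and -0.39 on its next probe. The remaining genes among the 12 lowest were Ankrd26 (-0.48), Tln2 (-0.46), Wfdc13 (-0.46) and Golm2 (-0.44). The next probe of Tln2 gave 0.07.

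In the other direction the largest difference above the median level was 0.57. It belonged to Iqsec3, an exchange factor for Arf GTPases, which stood at 2.63 in Control and 2.37 with Miglustat, and at 2.02 with D-PDMP and 2.59 with D-PPMP. D-PPMP was thus near Control, and D-PDMP was the lowest array. Serpine2, a protease inhibitor of the matrix, followed with levels of 2.06, 2.45, 1.61 and 1.98. Dcn differed by 0.32 because D-PPMP was less far below Control. Fosl1, Ptk2b, a focal adhesion kinase relative, Ccl2, a monocyte chemokine, and Hbegf, a ligand of the epidermal growth factor receptor, differed by 0.35, 0.33, 0.32 and 0.29. The next probe of Ptk2b agreed at 0.28. Tox4, Nuak2, Hcn2, Cd109 and Map9 completed the 12 highest, and the next probe of Map9 gave -0.31 against 0.31.

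**Figure D4:**
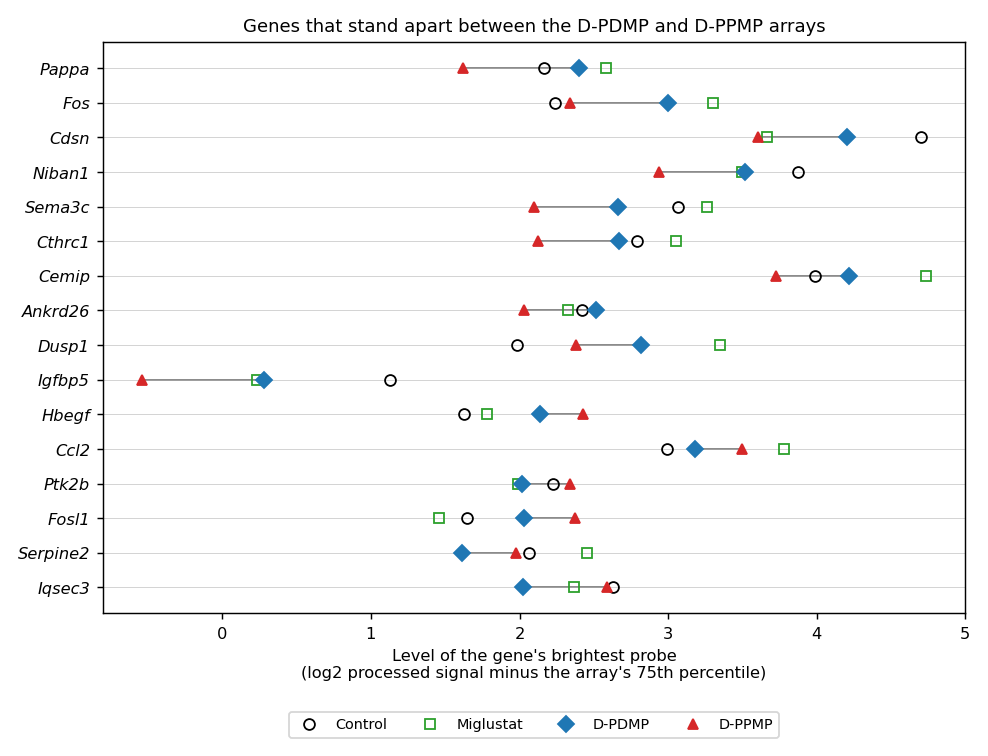
Levels on the 4 arrays, in log2 units relative to each array's 75th percentile, of 16 genes that differ between the analogues, 1 symbol an array and a grey line between the filled D-PDMP and D-PPMP symbols. Pappa has Control between the analogues, and for Iqsec3 the D-PPMP array lies by Control while D-PDMP is lower.

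Among the insulin-like growth factor genes 1 stood 1.5-fold higher with D-PPMP, Igf2, and 2 stood 1.5-fold lower, Igfbp5 and Pappa. Over all genes these shares were 1.49% and 0.509%, and of these genes Pappa alone was above the median level. The growth factors act through the receptor Igf1r, binding proteins hold them in the matrix, and proteases of the pappalysin family release them. Of 20 genes, 18 were measured, of which 14 were lower with D-PPMP, with a median of -0.02. Of these 18, 12 lie above the median level, where 65.0% of all genes were lower. Igf2, a ligand, stood at -1.56 in Control and -1.86 with Miglustat, and at -4.25 with D-PDMP and -3.14 with D-PPMP. It was 6.47-fold below Control with D-PDMP and 2.99-fold with D-PPMP, and the pair differed by 1.11. Under the alternatives of processing this difference ranged from 0.28 to 1.13. Igf1 differed by -0.21, from 4.49 with D-PDMP to 4.28 with D-PPMP.

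Among the binding proteins Igfbp5, which is abundant in bone matrix, stood at 1.13 in Control and 0.23 with Miglustat, and at 0.28 with D-PDMP and -0.54 with D-PPMP. All 3 inhibitor arrays were below Control, and D-PPMP was 1.76-fold below D-PDMP. Igfbp2 stood at 1.12, 1.48, 0.00 and -0.28. The analogues were thus below Control for Igfbp2 while Miglustat was above it. Igfbp4 and Igfbp6 differed by -0.10 and 0.10. The receptors Igf1r and Igf2r differed by -0.01 and -0.12, and the adaptors Irs1 and Irs2 by -0.21 and -0.01.

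Most genes at least 2-fold apart were close to background. Klf12, a transcriptional repressor, stood at -2.69 with D-PDMP and -5.25 with D-PPMP, and was not well above background in Control. Ccdc170 stood at -2.51 and -5.04, against -5.33 in Control. Car9, a carbonic anhydrase known as a hypoxia gene, stood at -1.94 and -3.32, with Control at -3.49. In these 3 genes D-PDMP was the highest of the 4 arrays. The next probe of Car9 gave -0.18 in place of -1.38.

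On the other side, Mfsd13b stood at -3.90 with D-PDMP and -1.58 with D-PPMP, with Control at -3.96. Fga, the fibrinogen alpha chain, stood at -3.32 and -1.81, with Control at -3.51. Tlx2, a homeobox gene, stood at -0.40 and 0.74, with Control at -0.73, and its next probe gave 0.19 in place of 1.14. Here D-PPMP was the array apart from Control, Miglustat and D-PDMP alike. Of the 26 genes, Car9 and Tlx2 were those with another probe well above background, and neither reached 1.5-fold on it. Of the 291 genes at 1.5-fold, 24 had another probe, which had the same sign in 15 and passed 1.5-fold in 2.

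Another 299 genes were well above background on the D-PDMP array only and 545 on the D-PPMP array only, so their fold is a lower bound. These counts leave out genes known only by a clone or predicted-gene number. Genes with another probe well above background on the dimmer array are left out too. The bound sets the bright level against a floor on the dim array. This floor is the weakest signal that counted there as well above background, or the gene's own signal if that was higher. The bound reached 2-fold in 23 of the 299 genes and in 34 of the 545. In all, 14934 genes were well above background on the D-PDMP array and 15268 on the D-PPMP array. The highest with D-PDMP were Olfr1277, an olfactory receptor gene, at least 8.91-fold higher, and Ptf1a, a pancreatic transcription factor, at least 6.37-fold higher. Syce2, Gimap6 and Slc2a3 followed, at least 5.12-fold, 5.05-fold and 5.02-fold higher. With D-PPMP, Olfr981 was at least 226-fold higher, Hcrtr2 at least 19.2-fold and Frmpd1os nearly as much, and Nefm at least 5.04-fold. Each of these 9 bounds rests on the gene's brightest probe on a single array.

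Chaperones and sensors of the endoplasmic reticulum were nearly all lower with D-PPMP, by small amounts. Of 27 genes, 25 were lower and 2 higher, with a median of -0.11 and a range of -0.34 to 0.05. Over all genes 54.3% were lower with a median of -0.01, and above the median level 65.0% with a median of -0.03. Quantile normalization gave 22 lower, normexp 23 and cyclic loess 24, each with a median of -0.08. Against Control the list's median was -0.01 with D-PDMP and -0.11 with D-PPMP. None of the 27 genes was 1.5-fold apart.

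Hyou1, a large chaperone, stood at -1.68 in Control and -1.82 with Miglustat, and at -1.70 with D-PDMP and -2.04 with D-PPMP. Pdia3, a disulfide isomerase of glycoproteins, stood at 5.11, 4.75, 5.19 and 4.93, and its next probe gave a difference of -0.24 beside -0.25. Hspa5, the main chaperone of the compartment, known as BiP, stood at 6.64, 6.57, 6.53 and 6.42. In each case the D-PPMP level was below the D-PDMP level, and for Hyou1 and Hspa5 it was the lowest of the 4. Eif2ak3 and Atf6, sensors of unfolded protein, differed by -0.20 and -0.13. Ern1, the sensor IRE1, differed by 0.05.

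The sequence through which several chaperone genes are known to respond to unfolded protein is the endoplasmic reticulum stress response element. It was searched as CCAAT and CCACG with any 9 bases between them, on both strands of the 250 bases before each start. It was found in 37 of 32851 promoters (0.113%) and in 8 of the 22 listed genes that have an entry. The matches are shown because these genes carry the element known for this group. Capitals mark the fixed letters, each match is written in the direction of the element, and strands and positions are those of GRCm38.p6.

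Calr (chr8:84847075-84847093, plus strand): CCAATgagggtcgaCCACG
Canx (chr11:50325800-50325818, minus strand): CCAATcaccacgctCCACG
Creld2 (chr15:88819520-88819538, minus strand): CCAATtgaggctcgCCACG
Dnajc3 (chr14:118937827-118937845, plus strand): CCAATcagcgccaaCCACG
Hsp90b1 (chr10:86705533-86705551, plus strand): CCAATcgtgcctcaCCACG
Hsp90b1 (chr10:86705638-86705656, minus strand): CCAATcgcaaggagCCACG
Hspa5 (chr2:34772025-34772043, plus strand): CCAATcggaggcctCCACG
Pdia6 (chr12:17266491-17266509, plus strand): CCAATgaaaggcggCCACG
Syvn1 (chr19:6046532-6046550, plus strand): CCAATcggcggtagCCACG

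The differences of these genes were -0.10 for Calr, -0.07 for Canx, -0.09 for Creld2, -0.11 for Dnajc3, -0.11 for Hsp90b1, -0.11 for Hspa5, 0.01 for Pdia6 and -0.03 for Syvn1. They were no further from 0 than those of the list as a whole. The window of Hspa5 shows where its match lies, 65 bases before the start.

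Hspa5 (chr2:34771840-34772089, plus strand): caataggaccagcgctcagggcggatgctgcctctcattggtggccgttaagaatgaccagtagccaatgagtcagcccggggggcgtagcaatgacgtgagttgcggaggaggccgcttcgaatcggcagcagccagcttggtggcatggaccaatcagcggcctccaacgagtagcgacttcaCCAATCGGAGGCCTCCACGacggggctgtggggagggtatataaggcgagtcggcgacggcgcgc

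The Atf4 and amino acid stress genes were also mostly lower with D-PPMP. Atf4 is the transcription factor that raises amino acid transport and synthesis under stress. Of 35 measured genes, 30 were lower and 5 higher with D-PPMP, with a median of -0.08. Of these 35, 29 lie above the median level, where 65.0% of all genes were lower. With quantile normalization or cyclic loess 28 of the 35 were lower. Both analogues lay below Control, with list medians of -0.20 for D-PDMP and -0.25 for D-PPMP, and Miglustat had -0.09. Slc7a11, the cystine transporter, stood at -1.37 in Control and -1.77 with Miglustat, and at -1.88 with D-PDMP and -2.33 with D-PPMP. Gdf15, a secreted stress factor, stood at 2.03, 2.18, 2.12 and 1.70. Slc7a11 was thus below Control on all 3 inhibitor arrays and lowest with D-PPMP, while for Gdf15 the D-PPMP array alone was below Control. Atf5 differed by -0.18 on its brightest probe and -0.20 on its next. Cbs, the enzyme that feeds cysteine synthesis, differed by 0.81 at a level near background.

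Among collagen chains 18 of 21 were lower with D-PPMP, with a median of -0.07, and with the mean of a gene's probes 15 of 21. Of these 21 chains, 17 lie above the median level, where 65.0% of all genes were lower. Among other matrix proteins 31 of 44 were lower, with a median of -0.06, and with quantile normalization or cyclic loess 27 of 44. Of these 44, 31 lie above the median level, where 65.0% of all genes were lower. Col5a1, a chain of the fibril-nucleating type V collagen, stood at 6.85 in Control and 7.02 with Miglustat, and at 6.55 with D-PDMP and 6.20 with D-PPMP. Lox, which cross-links collagen, stood at 5.93, 5.97, 5.70 and 5.37. Both genes were lower with the analogues than in Control, and lowest with D-PPMP. Col1a1 and Col1a2, the type I chains, differed by -0.05 and -0.12. The small leucine-rich proteoglycans were mixed, with 6 of 11 lower, since Lum and Dcn were higher with D-PPMP by 0.67 and 0.32 and Fmod lower by a difference of -0.20.

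Feedback genes of the ERK pathway and ligands of the epidermal growth factor receptor ran the other way. Of 24 measured, 18 were higher with D-PPMP and 6 lower, with a median of 0.10, and the median was 0.04 over the 11 members above the median level. Of all genes 45.7% were higher with D-PPMP, and 35.0% above the median level. In the dimmest of the 4 equal groups of genes 38.4% were lower, with a median of 0.081. The list's medians against Control were 0.18 with D-PDMP, 0.31 with D-PPMP and 0.02 with Miglustat. Dusp6, a phosphatase of ERK, stood at 3.92 in Control and 3.95 with Miglustat, and at 4.34 with D-PDMP and 4.52 with D-PPMP. Hbegf stood at 1.63, 1.78, 2.14 and 2.43. Etv1, a transcription factor downstream of ERK, stood at -0.61, -0.69, -0.13 and 0.45. In these genes both analogues were above Control and Miglustat, and D-PPMP was the highest array. Dusp7 went against the group with a difference of -0.21.

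Cholesterol genes were slightly higher with D-PPMP. Of 25 measured genes of synthesis and uptake, 20 were higher and 5 lower, with a median of 0.07, and none was 1.5-fold apart. Of all genes 45.7% were higher with D-PPMP, and 35.0% above the median level. Insig1, a sterol-regulated brake on the pathway, stood at -0.07 in Control and -0.32 with Miglustat, and at 0.06 with D-PDMP and 0.35 with D-PPMP. The order for Insig1 was Miglustat lowest and D-PPMP highest. The medians against Control were 0.03 with D-PDMP, 0.09 with D-PPMP and -0.16 with Miglustat. Of 10 genes of cholesterol efflux 9 were higher, the exception being Npc1, the lysosomal cholesterol transporter, with -0.16.

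**Figure D5:**
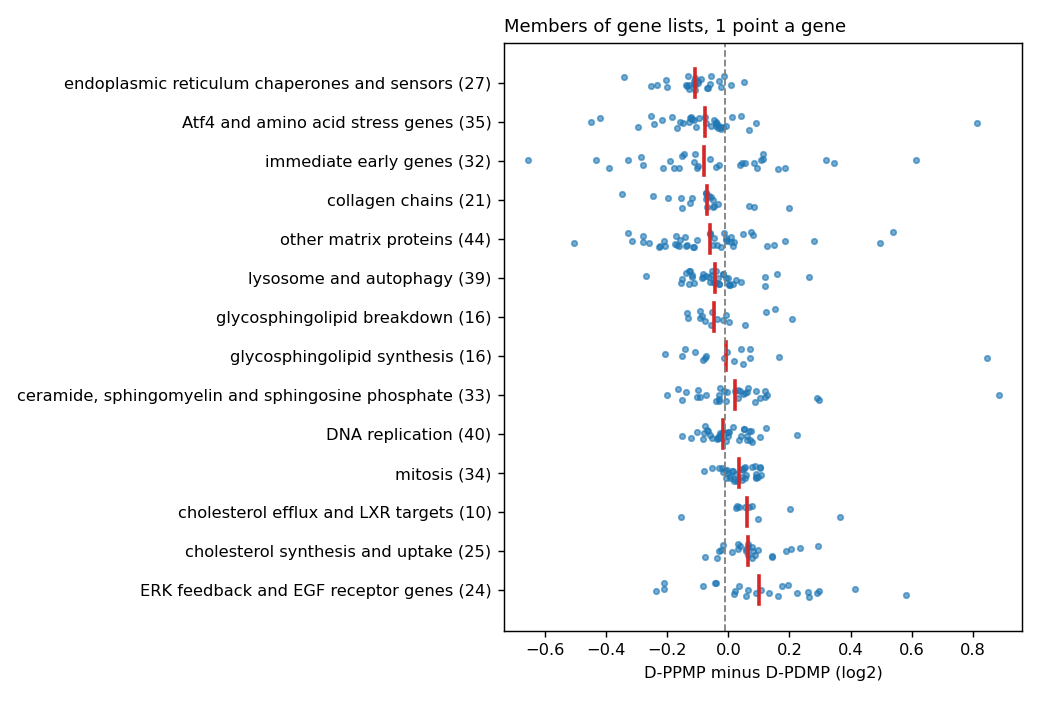
Each point is a measured gene of the list named at the left (number of genes in brackets), placed by its D-PPMP minus D-PDMP difference in log2 units, with the list's median as a red bar and the median of all genes, -0.01, as a dashed line. Vertical scatter within a list is only for legibility. The bar lies at -0.11 for the chaperones and sensors and at 0.10 for the ERK feedback genes.

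Genes of bone cell function parted little. Of 30 measured osteoblast genes 17 were lower and 13 higher with D-PPMP, with a median of -0.03. Runx2, the master regulator of the lineage, stood at -0.05 in Control and -0.10 with Miglustat, and at -0.13 with D-PDMP and -0.16 with D-PPMP, but its next probe gave a difference of 0.30. Spp1, osteopontin, stood at 5.54, 4.88, 5.74 and 5.93. Spp1 was thus lowest with Miglustat and above Control with both analogues. Sp7, osterix, differed by -0.46 and Bglap, osteocalcin, by 0.38, both at low levels. Among factors that act on osteoclasts, 11 of 25 were lower with D-PPMP. Il6 differed by -0.61 and Il11 by 0.42, both below the median level, while Sema3c, above that level, differed by -0.57. Tnfrsf11b, osteoprotegerin, differed by -0.14, and Csf1, the macrophage growth factor, by 0.06.

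Cell cycle genes gave the 2 compounds nearly the same values. Of 40 genes of DNA replication, 38 were above Control with D-PDMP and 38 with D-PPMP, with medians of 0.18 and 0.17 against Control and -0.13 for Miglustat. Over all genes measured on both analogue arrays and Control, the medians against Control were -0.001 with D-PDMP and -0.005 with D-PPMP. Both counts share the Control array, so a deviation of that array enters both. The median difference of the replication genes between the pair was -0.02, with a range of -0.15 to 0.22. Mcm3, a subunit of the replicative helicase, is outside the rule for named genes and was picked after its values were seen. It stood at 5.89 in Control and 5.70 with Miglustat, and at 6.07 with D-PDMP and 6.02 with D-PPMP. The analogues were on the same side of Control and Miglustat on the opposite side. Of 34 mitosis genes 25 were higher with D-PPMP, with a median of 0.04, while 45.7% of all genes were higher. Ribosomal protein genes differed by a median of -0.03 and respiratory chain genes by 0.00, and the reference genes Actb, Gapdh, Hprt and Tbp by -0.02, -0.06, -0.08 and -0.07. The next probes of Gapdh and Tbp gave 0.03 and 0.11.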

How the data were processed

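Total RNA was labelled with Cy3 and hybridised to 1 array a group, per the labels. The authors' scanner files are the output of Agilent Feature Extraction 12.1.1.1, per the submitters' processing notes, and list an intensity for every spot. The processed signal is an intensity corrected within the array and not scaled between arrays, per the file headers. The authors also deposited a table of log2 values, whose columns equal log2 of that signal minus the array's 75th percentile, within 0.05 for all probes matched. This settles its scale, centring and direction, and its column medians were -4.1, -4.0, -4.0 and -3.89.

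Control spots and outlier spots were left out, spots of a probe were averaged, and log2 signals (floor 1) were reduced by the array's 75th percentile. Of 56605 probes, 32989 (58.3%) were matched by accession to 22907 genes of the RefSeq table of GRCm38.p6, used for names and promoters, since the array design names another build. Of these genes 7898 had more than 1 probe, and the brightest over the 4 arrays was used. The next brightest probe well above background is given for genes whose results it bears on. A gene was called at 2-fold or 1.5-fold when well above background on both arrays.

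The gene lists, comparisons and named genes were chosen with earlier results of these data known. Named genes were the 12 highest and 12 lowest between the analogues and the 10 highest and 10 lowest by the less extreme distance of both from Control, each above the median level. To these were added up to 4 members of each list, the 5 highest bounds each way, all genes 2-fold apart or 2-fold from Control with both, and a set of pathway, bone and reference genes. Other list members were picked as examples after their values were seen. A few genes this rule names are not reported here.

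The step that counts genes past a fold was tried on simulated differences with known changes. This checks the counting only, not the calls made on these arrays. Alternatives were quantile normalization, cyclic loess and normexp (limma 3.58.1, R 4.3.3), other percentiles and filters, the mean over probes of a gene, and the authors' table. Other values were computed with Python 3.11.15, numpy 2.4.6 and pandas 2.3.3. The number of arrays limits the precision.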

Additional observations from a re-analysis of the deposited data

Results flagged for a closer look

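Listed here are 9 genes for which D-PDMP and D-PPMP lay on opposite sides of Control. For genes above the median level each side had to lie at least 0.2 from Control, on the log2 scale, and for dimmer genes at least 0.4. Genes known only by a clone or predicted-gene number were left out. The difference was not tested, since each group is 1 array. Above the median level these were Pappa, with a D-PPMP minus D-PDMP difference of -0.78, and Cemip, with -0.49. The others were close to background. S1pr3 differed by 0.88, Adam18 by 0.99, Clic3 by 1.02, Hgfac by 1.23, Nat8 by 0.85 and Olfr933 by 1.17. Paqr6 differed by -0.90, and its next probe by 0.12.

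Probes without a gene name took no part in the comparisons of genes. Of 11840 such probes well above background on both arrays, 40 were higher by 2-fold or more with D-PPMP and 13 with D-PDMP (0.448% together). The most distant were probe A_55_P1996907 with 3.33, A_55_P2719822 with 3.18, A_55_P2928148 with -3.06 and A_55_P2716002 with -2.35. In each the analogue array with the high value also stood above Control and Miglustat.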

How the results depend on the processing

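Counts of dim genes depended most on the processing. The SD over genes between the analogues was 0.085 above the median level, 0.088 with normexp and 0.487 with no filter on dim probes, and only under the last of these 8 alternatives was it not the lowest of the 6 pairs of arrays, with 0.477 between Miglustat and Control. Against Control, no difference of a gene named for both analogues reversed its sign, and 37 of 78 such values moved under normexp. With normexp background correction, computed on median spot signals and chosen after seeing the data, 0 genes were 2-fold higher with D-PPMP and 0 with D-PDMP, and 2 and 4 at 1.5-fold. From Control, 6 genes stood apart with D-PDMP and 14 with D-PPMP, and the early-response median was -0.028. With no filter on dim probes the counts for D-PPMP and D-PDMP were 1012 and 512 at 2-fold, 2070 and 1170 at 1.5-fold, and 1970 and 1738 from Control. Above the median level they were 0 and 0 at 2-fold, 0 and 3 at 1.5-fold, and 5 and 5 from Control. There the medians were 0.036 for ERK feedback genes (3 members lower), -0.11 for other matrix proteins and -0.072 for glycosphingolipid synthesis. Quantile normalization gave 20 genes 2-fold higher with D-PDMP, and 136 and 155 at 1.5-fold with D-PPMP and D-PDMP. Cyclic loess gave 118 and 139. With the mean of a gene's probes 1 cholesterol gene was lower with D-PPMP. The causes were not tested, except that the filters change how many genes are compared. No 2-fold difference and no list median of at least 0.05 reversed its sign. The median of all genes lay between -0.03 and 0.01 under all settings. Of 223 named genes checked, 32 moved under normexp and 7 with the mean of probes. The 1.5-fold counts were added after seeing the data. Normexp on mean spot signals was not run, because those signals were not among the data used here. No paired analysis was possible because each group has 1 array.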

Other observations

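H19 and Igf2, neighbouring imprinted genes, were both lower with the analogues. H19, a noncoding RNA, stood at -3.18 in Control and -3.42 with Miglustat, and at -4.97 with D-PDMP and -4.47 with D-PPMP. It was 3.46-fold below Control with D-PDMP and 2.45-fold with D-PPMP, beside 6.47-fold and 2.99-fold for Igf2. H19 was close to background with both analogues, and normexp gave -0.38 and -0.30 for it and -0.93 and -0.65 for Igf2. A list of 36 imprinted genes was drawn up after these values were seen, and 21 were measured with Control. Of these 10 were below Control with both analogues and 9 above. H19, Igf2 and Mest, 3 in all, were 1.5-fold below with both, where 62 of all 14076 genes (0.44%) were. H19 and Igf2 prompted the list, so its count cannot be weighed against that share. Mest stood at 1.11, 1.55, 0.41 and 0.30, and its next probe differed from Control by -0.80 with D-PDMP and -0.62 with D-PPMP. Plagl1, another imprinted gene, stood at 2.23, 2.71, 1.76 and 1.44, but its next probe differed from Control by 0.05 and 0.40. The list as a whole had medians of -0.00 with D-PDMP and -0.04 with D-PPMP.

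Chemokine and inflammatory genes held members on either side of the pair. Ccl2 stood at 2.99 in Control and 3.78 with Miglustat, and at 3.18 with D-PDMP and 3.50 with D-PPMP, and Ccl7 at 1.58, 2.36, 1.77 and 2.05. Ptx3, a secreted pattern recognition protein, stood at 4.17, 4.89, 4.05 and 3.65. Miglustat gave the highest level in all 3. Of 22 measured inflammatory genes 13 were higher with D-PPMP, with a median of 0.06. The metallothioneins Mt1 and Mt2, which bind zinc and copper, were highest with D-PPMP, at 5.39 and 5.45 against 5.23 and 5.19 with D-PDMP.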
